A study of Mus musculus with 30 samples.

Results

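Renal progenitors obtained by directed differentiation were compared with the undifferentiated mouse embryonic stem cells (ESCs) they came from, on whole-transcript expression arrays that report 23986 gene symbols. The comparison takes in the 6 of the 30 arrays of the series that carry these 2 labels, 3 arrays of renal progenitors and 3 of undifferentiated ESCs, and every gene on the array entered it. The progenitors had passed 21 days in monolayer on gelatin without passaging: 2 days of priming with Fgf2 and activin A, 2 days of mesoderm induction with Bmp4, activin A and Fgf2, 2 days of intermediate mesoderm induction with the ROCK inhibitor Y27632, retinoic acid and activin A, and 15 days with Bmp7 and Fgf2. The ESCs, of line 1B10, were kept with LIF and serum on mouse embryonic fibroblasts whose division had been stopped with mitomycin C, so their RNA can include that of the feeder cells, whereas the progenitors were grown without feeders. The 6 samples compared trace to this 1 ESC line, and no source says whether the 3 arrays of a group came from separate cultures. The p-values rest on the spread within groups, pooled over all 30 arrays of the series, and that spread may be technical. Values of mesoderm cells, intermediate mesoderm cells and kidneys of mouse embryos at E12.5 and E13.5 are given below only to place the comparison.

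The metanephric kidney arises from intermediate mesoderm. Its nephrons come from the cap mesenchyme, whose transcription factors include Osr1, Eya1, Six2 and Wt1, its collecting system comes from the nephric duct and its outgrowth, the ureteric bud, which carries the receptor Ret, and its interstitium comes from stromal cells that express Foxd1. ESCs hold the pluripotent state through a transcription factor network around Pou5f1, Sox2 and Nanog, divide with a short G1 phase and keep many germline genes active. Bmp7 and Fgf2, the factors of the last step, are known to sustain nephron progenitors in culture.

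The values are log2 intensities, so a difference of 1 is a 2-fold change. A gene is called where the Benjamini-Hochberg adjusted p of the limma contrast was under 0.05. Of all genes, 14.8% were called higher and 19.6% lower in renal progenitors, 34.4% in all, and the counts of any gene group are to be read against these shares. The median log2 fold change of all genes was 0.03. At least 2-fold, 1410 genes were higher and 1550 lower, and at least 8-fold 98 were higher and 47 lower. Among the called genes, 6981 had 3 progenitor values that lay wholly above or below the 3 ESC values, and of all genes 15.8% lay wholly above and 21.3% wholly below. The renal progenitors varied the most among themselves of the 10 groups of the series, with a median SD of 0.2604 and 575 genes with an SD above 1, against 0.1917 and 199 genes in the ESCs. With the arrays weighted by group, 5973 of the 8256 calls were made again, and with the 6 arrays fitted alone 4476 were. In those fits the shares of all genes called were 9.97% higher and 14.9% lower with the weights, and 7.19% higher and 11.7% lower with the 6 arrays, and against a minimum log2 fold change of 1 they were 1.29% higher and 1.23% lower. Replicate 1 of the progenitors and of the ESCs carries the label of batch 1 and their other arrays that of batch 2. The batch term in limma had an adjusted p under 0.05 for 0 genes and an unadjusted p under 0.05 for 2075. Within each batch, 8118 of the called genes changed in the same direction. Arrays of both batches entered the calls, so this agreement was partly set by the selection of the genes.

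**Figure D1:**
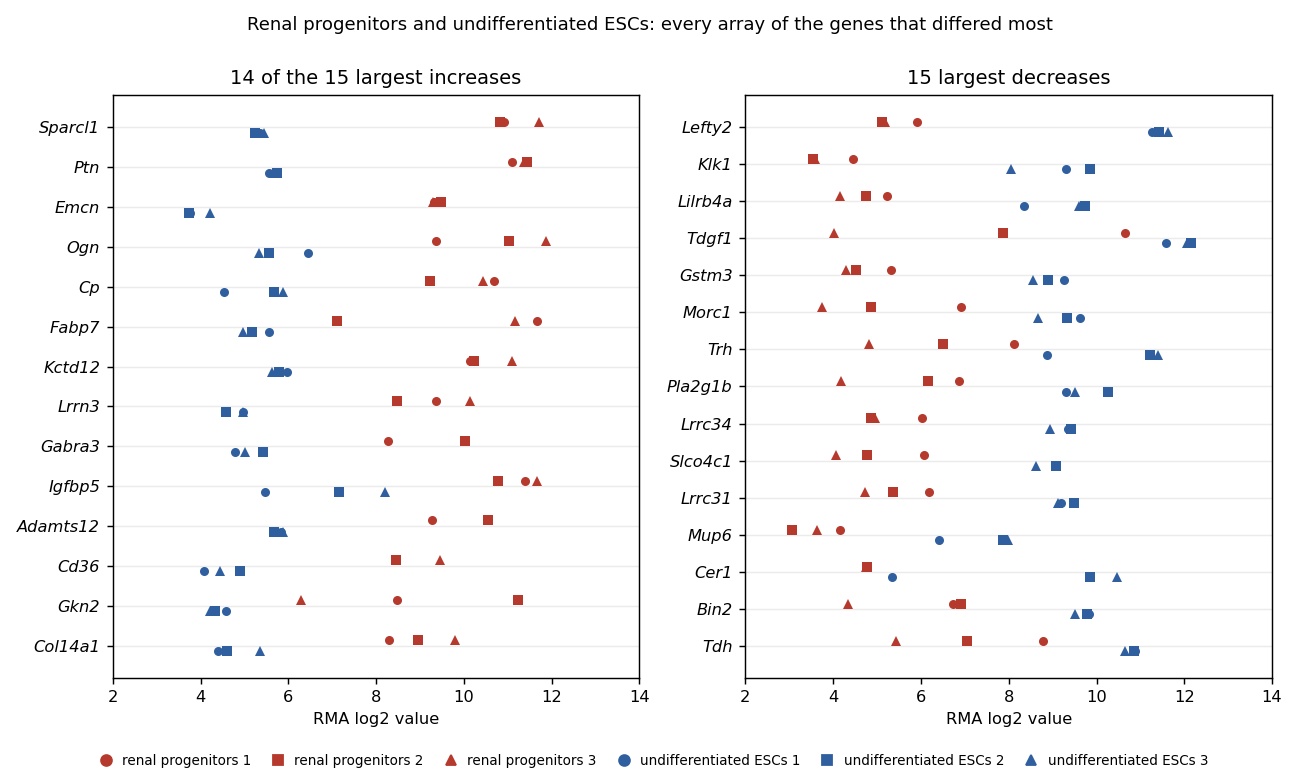
Values of 14 of the 15 genes with the largest increase and the 15 with the largest decrease among called genes whose groups did not overlap. Each point is 1 array on the RMA log2 scale, with renal progenitors in red above ESCs in blue and the symbol giving the replicate. The Sparcl1 points lie at 10.83 to 11.71 in progenitors and at 5.24 to 5.44 in ESCs.

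Sparcl1, which encodes a secreted matrix protein of the SPARC family, was measured at 10.92, 10.83 and 11.71 in the 3 progenitor arrays, against 5.35, 5.24 and 5.44 in the 3 ESC arrays. Its log2 fold change of 5.81 ± 0.35 (SE) was the largest increase, 56.2-fold (adjusted p = 1.03e-10), and the groups were far apart. Ptn encodes the heparin-binding growth factor pleiotrophin. Its values were 11.10, 11.43 and 11.36 in progenitors against 5.57, 5.75 and 5.69 in ESCs, a log2 fold change of 5.62 ± 0.30. Emcn, which encodes the endothelial sialomucin endomucin, stood at 9.32, 9.49 and 9.29 in progenitors and 3.75, 3.74 and 4.21 in ESCs with little spread within either group. Ogn, encoding the small leucine-rich proteoglycan osteoglycin, and Cp, encoding the copper-carrying ferroxidase ceruloplasmin, rose by 4.97 and 4.76 on the log2 scale. Fabp7, a fatty acid binding protein of radial glia, and Gkn2, a secreted protein known from the stomach, also stood among the 15 largest, but their progenitor arrays differed widely. Fabp7 was measured at 11.66, 7.10 and 11.17 in the progenitors against 5.55, 5.18 and 4.97 in ESCs, with progenitor replicate 2 far below the other progenitor arrays and above the ESCs. Gkn2 was measured at 8.48, 11.23 and 6.28 in progenitors against 4.58, 4.32 and 4.22 in ESCs, with progenitor replicate 2 far above.

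The largest decrease was in Lefty2, which encodes an antagonist of Nodal signaling, with 5.92, 5.12 and 5.18 in progenitors against 11.27, 11.42 and 11.63 in ESCs. Its log2 fold change was -6.03 ± 0.51 (adjusted p = 9.81e-09), and all progenitor values lay more than 5 log2 units below those of the ESCs. Klk1, a tissue kallikrein, came next with 4.45, 3.53 and 3.59 in progenitors and 9.30, 9.85 and 8.05 in ESCs. Lilrb4a, an inhibitory receptor of myeloid cells, had 5.23, 4.74 and 4.16 in progenitors against 8.35, 9.74 and 9.60 in ESCs. Tdgf1, the Nodal co-receptor Cripto, was lower on all progenitor arrays, but these ranged widely: 10.66, 7.87 and 4.02 in progenitors against 11.59, 12.16 and 12.06 in ESCs. Replicate 1 was within 1 log2 unit of the lowest ESC array, and replicate 3 was at a level close to that of E12.5 kidneys, 4.04 ± 0.23 (mean ± SD, n = 3). Gstm3, Morc1, Trh and Tdh, which encodes the threonine dehydrogenase on which mouse ESCs depend, fell by 4.19, 4.04, 4.02 and 3.72 on the log2 scale. For Trh the fold change rests on batch 2: it was -5.66 there and -0.75 in batch 1.

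Pluripotency genes fell nearly as a whole. Of 35 genes of the naive and core pluripotency network, 0 were called higher and 33 lower, with a median log2 fold change of -2.37. Pou5f1, the central factor of the network, was measured at 6.82, 5.98 and 5.93 in progenitors against 7.77, 7.29 and 7.23 in ESCs, a log2 fold change of -1.19 ± 0.26. Nanog stood at 9.88, 8.48 and 5.21 in progenitors and 11.77, 11.42 and 11.24 in ESCs, and Sox2 at 9.70, 7.99 and 8.28 in progenitors and 11.26, 10.72 and 10.54 in ESCs. The groups did not overlap for any of these 3 factors. The RNA-binding protein gene Lin28a, the ESC growth factor gene Fgf4 and the orphan receptor gene Esrrb fell by 2.15, 3.30 and 2.28 on the log2 scale. The mean level of the 35 genes was 7.65, 6.73 and 5.73 in progenitor replicates 1, 2 and 3, against 9.27, 9.13 and 9.10 in the ESC arrays. Thus all ESC arrays were alike, whereas the progenitor arrays spread over nearly 2 log2 units, and among them 34 of the 35 genes were highest in replicate 1, as were 33.4% of all genes. The mean of this list was 5.55 in E12.5 and 5.65 in E13.5 kidneys, close to progenitor replicate 3 and well under replicates 1 and 2. In these bulk samples, fewer cells of a type and less RNA per cell cannot be told apart.

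Genes of the primed epiblast and the primitive streak, the states that follow naive pluripotency, differed among the ESC arrays themselves. Fgf5, the classical marker of the primed epiblast, was measured at 5.57, 5.22 and 5.55 in progenitors against 5.69, 9.41 and 10.42 in ESCs, so that only ESC replicates 2 and 3 stood above the progenitors by more than 1 log2 unit. Eomes, a T-box factor of the streak, read 5.83, 4.93 and 5.31 in progenitors and 6.46, 8.32 and 10.16 in ESCs. Among the ESC arrays, 11 of the 12 primed epiblast genes and 16 of the 22 streak and mesoderm genes were lowest in replicate 1, as were 31.1% of all genes. The median log2 fold change of the primed list was -0.01 in batch 1 and -0.85 in batch 2. Of the streak genes, 9 were called lower and only Pdgfra, which the kidney stroma also expresses, was called higher, whereas 4 were lower and 2 higher with the 6 arrays alone and 2 were higher without progenitor replicate 1. ESC replicate 1 is also the 1 ESC array of batch 1, so array and batch cannot be told apart here.

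MicroRNA genes were compared as well, and the mature sequences are shown because the families they belong to are read by their seeds. The array reads the microRNA gene's transcript or precursor and not the processed microRNA. Of 47 microRNA genes on a list, 4 were called higher and 8 lower, neither share above that of all genes, 14.8% and 19.6%. Only 2 were higher without progenitor replicate 2 or 3 or ESC replicate 2 or with the 6 arrays alone. On all 6 arrays, 24 of the 47 lay under the 90th percentile of olfactory and vomeronasal receptor genes, a gauge of background. Mature sequences were found in RefSeq (build GRCm38.p6) for 10 of these 12 genes, and Mir143 and Mir145a are named only. The sequences lie at chr7:3218674-3218697 (miR-290a-3p), chr3:127545501-127545522 (miR-302a-5p), chr14:115044183-115044205 (miR-20a-5p), chr14:115043867-115043889 (miR-18a-5p), chr14:115044048-115044070 (miR-19a-3p) and chr16:77599672-77599693 (let-7c-5p) on the plus strand and at chrX:52741697-52741718 (miR-363-3p) on the minus strand. The seed, bases 2 to 8 from the 5′ end, is in capitals.
mmu-miR-290a-3p: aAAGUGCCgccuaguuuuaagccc
mmu-miR-302a-5p: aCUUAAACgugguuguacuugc
mmu-miR-20a-5p: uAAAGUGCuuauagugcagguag
mmu-miR-18a-5p: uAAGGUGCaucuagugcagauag
mmu-miR-19a-3p: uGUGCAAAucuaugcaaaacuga
mmu-miR-363-3p: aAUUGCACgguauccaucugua
mmu-let-7c-5p: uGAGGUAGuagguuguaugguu

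No 2 of the 17 mature sequences of the called genes share the whole seed, although the letters AAGUGC stand in the seeds of miR-290a-3p and miR-20a-5p. Of Mir302a only the 5p sequence is among the 17, so the seed of its other arm was not compared. Mir290a, of the cluster that is a main microRNA source in mouse ESCs, was measured at 6.38, 5.39 and 3.40 in progenitors against 9.62, 9.16 and 8.74 in ESCs. Its log2 fold change was -4.12 ± 0.63 (adjusted p = 1.8e-05), with no overlap and with progenitor replicate 3 at the level of E12.5 kidneys (3.70 ± 0.36). The members of the Mir17 cluster on chromosome 14, Mir18, Mir19a and Mir20a, which promote proliferation, fell by 1.37, 1.66 and 1.51 on the log2 scale, and Mir363 of the related cluster on chromosome X by 1.71. Mir302a read 2.06, 2.16 and 1.32 in progenitors and 1.83, 4.21 and 4.64 in ESCs, with ESC replicate 1 inside the progenitor range. Its call was lost without any 1 of progenitor replicates 2 and 3 and ESC replicates 2 and 3 (adjusted p of 0.0504 to 0.153). In the other direction, Mirlet7c-1, of the let-7 family that accumulates on differentiation and targets Lin28a, stood at 4.37, 5.60 and 5.08 in progenitors against 3.02, 3.27 and 2.88 in ESCs (log2 fold change 1.95 ± 0.42). Mir143 and Mir145a, known from smooth muscle and fibroblasts, rose by 1.37 and 1.99, but the Mir145a values of 4.18, 6.67 and 8.00 in progenitors overlapped the 3.97, 4.05 and 4.87 of ESCs, and its call was lost without progenitor replicate 2 or 3 or ESC replicate 1 or 2 (adjusted p of 0.054 to 0.156).

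Genes that ESCs share with the germline fell as well. Of 32 such genes, 0 were called higher and 21 lower, with a median of -1.05. Smc1b, the meiotic cohesin subunit, was measured at 6.02, 5.63 and 5.13 in progenitors against 8.78, 8.23 and 8.03 in ESCs (log2 fold change -2.75 ± 0.32), and the groups were well apart. The ribosomal protein gene Rpl10l and the transcription factor gene Sohlh2 fell by 3.03 and 2.85. Smc1b reached most of its decrease by the mesoderm stage: the series ran 8.34 ± 0.39 in ESCs, 5.92 ± 0.26 in mesoderm, 6.33 ± 0.09 in intermediate mesoderm and 5.59 ± 0.45 in progenitors. The promoters of this list are shown since germline genes are known to carry E-boxes, the site of Mga-Max complexes that silence them. Among the 28 members with a promoter in RefSeq (GRCm38.p6), 13 (46.4%) held the palindromic E-box CACGTG in the 250 bases before the start, as did 6.05% of 27025 promoters. A match describes the letters and is not a site of binding. The 100 bases before the start are given for 3 members, Sycp3 (chr10:88459487-88459586, plus strand), which encodes a protein of the synaptonemal complex, Hormad1 (chr3:95559577-95559676, plus strand), which encodes a protein of the meiotic chromosome axis, and Ddx4 (chr13:112652311-112652410, minus strand), which encodes the germline helicase Vasa, with CACGTG in capitals.
Sycp3: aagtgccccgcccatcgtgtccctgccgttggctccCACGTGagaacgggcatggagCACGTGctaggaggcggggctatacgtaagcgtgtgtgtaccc
Hormad1: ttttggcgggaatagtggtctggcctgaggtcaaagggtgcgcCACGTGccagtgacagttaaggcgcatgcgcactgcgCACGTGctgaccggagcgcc
Ddx4: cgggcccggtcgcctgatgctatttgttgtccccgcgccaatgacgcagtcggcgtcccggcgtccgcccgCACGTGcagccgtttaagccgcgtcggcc

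Sycp3 values were 6.87, 6.06 and 6.31 in progenitors and 8.50, 8.39 and 7.87 in ESCs (log2 fold change -1.84 ± 0.31), and Ddx4 values were 5.32, 5.35 and 3.63 in progenitors and 7.42, 6.92 and 5.92 in ESCs (-1.98 ± 0.45), both without overlap. Hormad1, at 4.0, 3.35 and 2.96 in progenitors and 5.40, 5.25 and 3.65 in ESCs, overlapped in ESC replicate 3. Its log2 fold change was -1.33 ± 0.38. Its call was lost without ESC replicate 1 (adjusted p = 0.0533) or 2 (0.0768). Of the 18 members with a promoter that were called, 9 held the motif, and of the 28 with a promoter, called or not, 13 did.

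The machinery of the cell cycle was lower in progenitors almost throughout. Of 50 genes of DNA replication and repair, 0 were called higher and 48 lower (median -1.39), and of 40 mitosis genes 0 were higher and 38 lower (median -1.28). Mcm3, a subunit of the replicative helicase, stood at 9.27, 8.70 and 8.13 in progenitors and 10.72, 10.72 and 10.65 in ESCs. The groups were apart by more than 1 log2 unit on every array. Espl1, which encodes the separase that opens sister chromatids, led the mitosis list with 7.26, 6.95 and 6.36 in progenitors against 9.05, 8.53 and 8.12 in ESCs (log2 fold change -1.71 ± 0.19). The 2 mitosis genes without a call were Mki67, the proliferation antigen Ki-67, at 10.69, 10.44 and 9.79 in progenitors and 10.29, 9.89 and 10.40 in ESCs, and Cenpe, a kinetochore motor, at 8.79, 8.59 and 7.89 in progenitors and 9.02, 8.73 and 9.06 in ESCs. Cenpe was called lower without progenitor replicate 1 (adjusted p = 0.0397). Among the progenitor arrays, all 40 mitosis genes were lowest in replicate 3, as were 33.5% of all genes, and 39 were highest in replicate 1, as were 33.4%. The mean level of the list was 8.88, 8.45 and 7.78 in the progenitor arrays and 9.66, 9.60 and 9.31 in the ESC arrays. Embryonic kidneys had list means of 9.23 at E12.5 and 9.24 at E13.5, nearer to ESCs than to progenitors.

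Promoters of mitotic genes are known for a cell cycle homology region, TTTGAA or near matches, downstream of CCAAT boxes. Both are shown for some of the members that carry both. In the 250 bases before the start, 9 of 32 mitosis genes with a promoter (28.1%) held TTTGAA on either strand, as did 16.3% of all promoters, and 23 (71.9%) held CCAAT, as did 34.5%. Both were present in 8, and in 5.73% of all promoters. The order was not the same in all 8. In Ccnb2 and Ect2, which are not shown, TTTGAA began 167 and 114 bases before the start, upstream of every CCAAT match. Capitals mark both motifs and their reverse complements TTCAAA and ATTGG in the 100 bases before the start of Cdc20 (chr4:118437344-118437443, minus strand), an activator of the anaphase-promoting complex, of Espl1 (chr15:102296193-102296292, plus strand), of Kif11 (chr19:37376282-37376381, plus strand), the motor that separates spindle poles, and of Cdk1 (chr10:69352913-69353012, minus strand), the mitotic kinase.
Cdc20: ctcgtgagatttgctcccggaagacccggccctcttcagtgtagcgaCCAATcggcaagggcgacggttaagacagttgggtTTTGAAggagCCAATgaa
Espl1: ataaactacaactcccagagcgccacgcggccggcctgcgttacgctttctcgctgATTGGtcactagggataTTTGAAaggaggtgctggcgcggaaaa
Kif11: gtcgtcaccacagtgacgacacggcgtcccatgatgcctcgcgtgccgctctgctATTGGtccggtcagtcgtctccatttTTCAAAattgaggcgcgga
Cdk1: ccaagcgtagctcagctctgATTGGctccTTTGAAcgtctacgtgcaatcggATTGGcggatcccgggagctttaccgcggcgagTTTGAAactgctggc

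In Cdc20 the element begins 18 bases before the start and the nearest upstream CCAAT box 53 bases before it, and in Espl1 they begin 27 and 44 bases before. Cdc20 was measured at 8.91, 8.42 and 7.57 in progenitors against 9.61, 9.85 and 9.66 in ESCs, a log2 fold change of -1.41 ± 0.19. Kif11 and Cdk1 fell by 1.19 and 0.98 on the log2 scale. The groups did not overlap for Cdc20 or Kif11, while for Cdk1 the lowest ESC array, at 8.88, lay just under the highest progenitor array, at 8.92. Mki67 carries both motifs too and was the member with both that was not called, so the presence of the motifs and the call did not go together in every member. The E2F site TTTCCCGC was found in 4 of 39 replication promoters (10.3%), against 0.929% of all promoters.

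Regulators of the G1 phase were mostly lower. Of 21 G1 cyclin and E2F genes, 3 were called higher and 11 lower (median -0.53). Ccnd2, cyclin D2, was measured at 11.10, 11.36 and 11.33 in progenitors against 8.66, 8.71 and 9.11 in ESCs, and the transcription factor gene Mycn at 6.09, 5.67 and 5.50 in progenitors against 8.16, 7.96 and 8.23 in ESCs. Thus Ccnd2 rose by 2.44 and Mycn fell by 2.37 on the log2 scale, each without overlap. Of 30 cell cycle inhibitors and p53 targets, 9 were called higher and 6 lower (3 lower with the 6 arrays alone). Cdkn1c, the imprinted inhibitor p57, rose by 2.49 (8.04, 8.43 and 9.48 in progenitors against 5.67, 6.53 and 6.28 in ESCs), and Cdkn2c, an inhibitor of the cyclin D kinases, by 1.64. Biosynthetic genes fell with the cell cycle genes: 28 of 28 ribosome biogenesis genes were called lower (median -1.11), led by Rrp1b and Nhp2, and 23 of 30 genes of nucleotide and one-carbon synthesis. Of these last, Aldh1l2, the mitochondrial formyltetrahydrofolate dehydrogenase, alone was called higher, at 7.37, 7.69 and 8.23 in progenitors against 5.83, 5.33 and 5.67 in ESCs. Of 42 subunits of oxidative phosphorylation, 22 were called lower and 1 higher, but with the 6 arrays alone 8 were lower and without ESC replicate 2 13 were, and 0 were higher without progenitor replicate 2 or 3 or ESC replicate 2 or 3. Of 21 glycolytic genes, 9 were called lower and 0 higher, with the lactate dehydrogenase subunit Ldhb (-2.10) and the glucose transporter Slc2a3 (-1.81) changed the most. With the 6 arrays alone 6 glycolytic genes were lower. The mean of this list was 9.06 in progenitor replicate 1, above the 9.02 of ESC replicate 3. Its median difference was -0.11 in batch 1 and -0.61 in batch 2.

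Chromatin regulators were mostly lower. The maintenance and de novo DNA methylation machinery had 9 of 16 genes called lower and 2 higher (1 higher without ESC replicate 1), and polycomb and remodelling genes had 18 of 30 lower and 5 higher (10 lower and 4 higher with the 6 arrays alone). Tet1, the dioxygenase that starts demethylation in ESCs, was measured at 9.25, 8.06 and 7.90 in progenitors against 10.64, 9.98 and 10.31 in ESCs, and its paralog Tet3 rose by 1.34. Smarca2, the BRM ATPase of the SWI/SNF complex, rose the most, at 9.46, 9.01 and 9.98 in progenitors against 6.36, 6.22 and 6.57 in ESCs (log2 fold change 3.10 ± 0.24). Its alternative ATPase Smarca4 (BRG1) fell by 0.50, and Smarcc2 rose by 1.36 while Smarcc1 fell by 0.63. Pcgf6, the polycomb subunit of ESCs that acts at germline genes, fell by 1.68, with 7.14, 6.65 and 7.03 in progenitors against 8.63, 8.61 and 8.62 in ESCs. Replicate differences in Dnmt3b were large: 6.99, 6.81 and 5.68 in progenitors against 6.38, 9.25 and 9.87 in ESCs. Here ESC replicate 1 lay below replicates 1 and 2 of the progenitors, and the difference was -3.31 in batch 2 and 0.60 in batch 1.

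**Figure D2:**
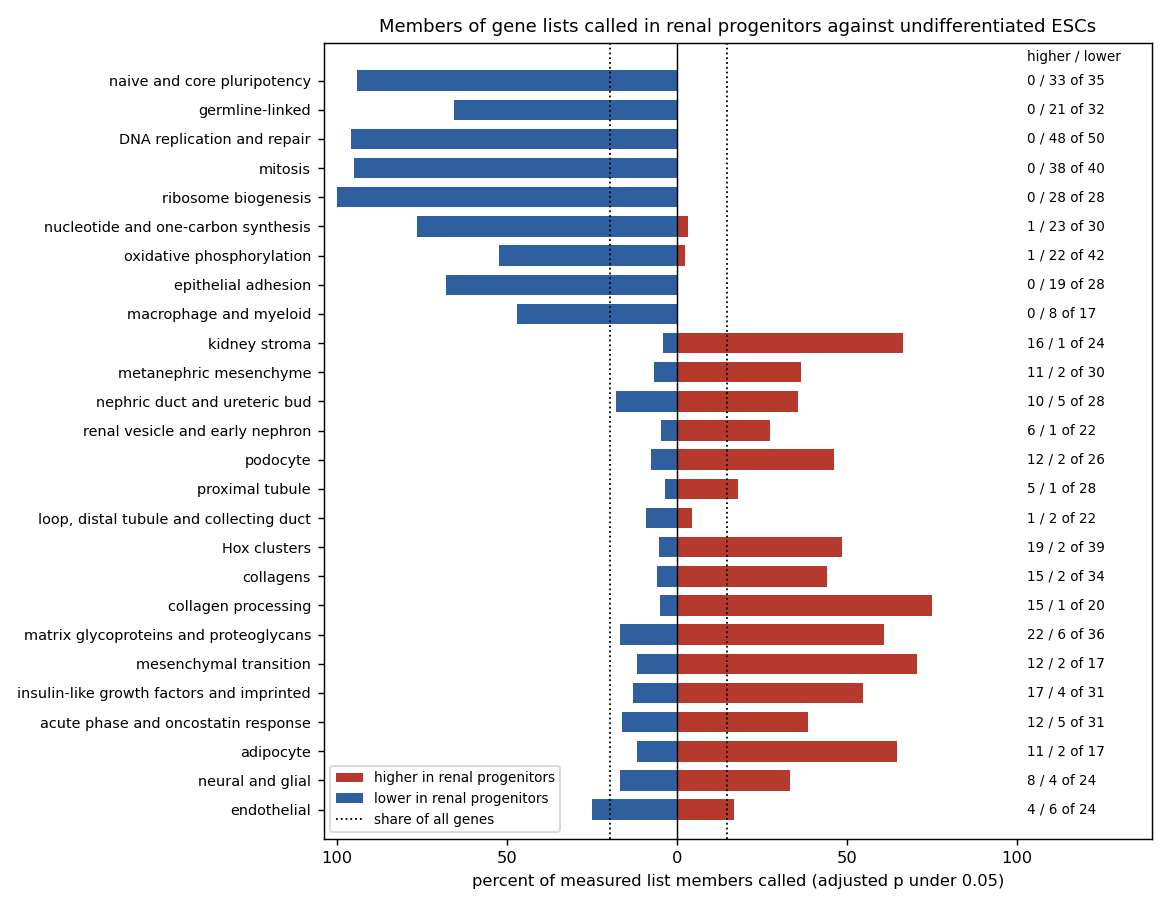
Share of the measured members of 26 gene lists that were called higher (red, to the right) or lower (blue, to the left) in renal progenitors than in ESCs. The dotted lines mark the shares of all genes, 14.8% higher and 19.6% lower, and the counts stand at the right. Pluripotency, replication, mitosis and ribosome biogenesis extend far to the left, and kidney stroma, collagen processing and mesenchymal transition far to the right.

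Genes of kidney development changed unevenly. Of 18 markers of kidney development and pluripotency, 7 were called higher, 5 lower and 6 were not called. The lower genes were the pluripotency genes Lefty2, Esrrb, Lin28a and Pou5f1 and the kidney gene Sall1. Osr1, the earliest of the intermediate mesoderm factors, was measured at 9.76, 10.72 and 10.98 in progenitors against 8.06, 7.46 and 7.96 in ESCs, a log2 fold change of 2.66 ± 0.40 (adjusted p = 1.23e-05). Eya1, a phosphatase and co-activator required for the kidney mesenchyme, read 10.29, 8.94 and 10.67 in progenitors and 6.34, 7.13 and 7.29 in ESCs (3.05 ± 0.43). Itga8, the integrin of the kidney mesenchyme, read 8.52, 9.46 and 9.50 in progenitors and 5.34, 5.76 and 6.59 in ESCs (3.27 ± 0.35). In all 3 genes the groups were apart, and E12.5 kidneys had 11.25 ± 0.14 for Osr1, 11.56 ± 0.20 for Eya1 and 9.34 ± 0.02 for Itga8. The homeobox gene Meox2 was at 5.46, 9.67 and 8.79 in progenitors against 4.07, 4.44 and 4.61 in ESCs, so that replicate 1 stood much nearer to the ESCs than the other progenitor arrays.

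Other defining genes of the nephron progenitors were mostly not called. Six2, which maintains the cap mesenchyme, was measured at 5.08, 5.36 and 5.32 in progenitors against 5.37, 5.54 and 6.98 in ESCs, and at 10.04 ± 0.26 in E12.5 kidneys. It was not called (adjusted p = 0.0955), and its 3 progenitor values all lay under the ESC values. Without ESC replicate 1 or 2 it was called lower, by 1.02 (adjusted p = 0.0336) and 0.96 (0.0473), and without ESC replicate 3 the log2 fold change was -0.20. Wt1, a zinc finger factor of the mesenchyme and podocytes, read 6.24, 6.91 and 7.27 in progenitors and 6.25, 6.42 and 6.88 in ESCs, against 9.59 ± 0.09 in E12.5 kidneys. Cited1, Gdnf and Pax8 were not called either, although Pax8 was called higher without progenitor replicate 2 (adjusted p = 0.02) and Cited1 without progenitor replicate 3 (0.0393). Gdnf, the ligand of Ret, read 3.84, 4.48 and 4.85 in progenitors and 4.49, 4.19 and 4.39 in ESCs where E12.5 kidneys had 7.71 ± 0.14. Pax2, which marks intermediate mesoderm and its derivatives, was called higher at 5.52, 4.42 and 6.47 in progenitors against 4.64, 4.10 and 4.70 in ESCs (log2 fold change 0.99 ± 0.36, adjusted p = 0.0379). Progenitor replicate 2 lay inside the ESC range, kidneys stood at 9.68 ± 0.07, and the call was lost without any 1 of progenitor replicates 1 and 3 and ESC replicates 1 and 2 (adjusted p of 0.0625 to 0.321). Sall1, a zinc finger factor of both ESCs and nephron progenitors, fell by 1.62 on the log2 scale, with 9.06, 7.71 and 8.21 in progenitors against 10.08, 9.65 and 10.10 in ESCs. Of the 30 genes of the metanephric mesenchyme list, 11 were called higher and 2 lower with a median of 0.26, and kidneys exceeded ESCs by a median of 2.75. Without ESC replicate 1, 7 were called higher, and with arrays weighted by group 7 also.

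**Figure D3:**
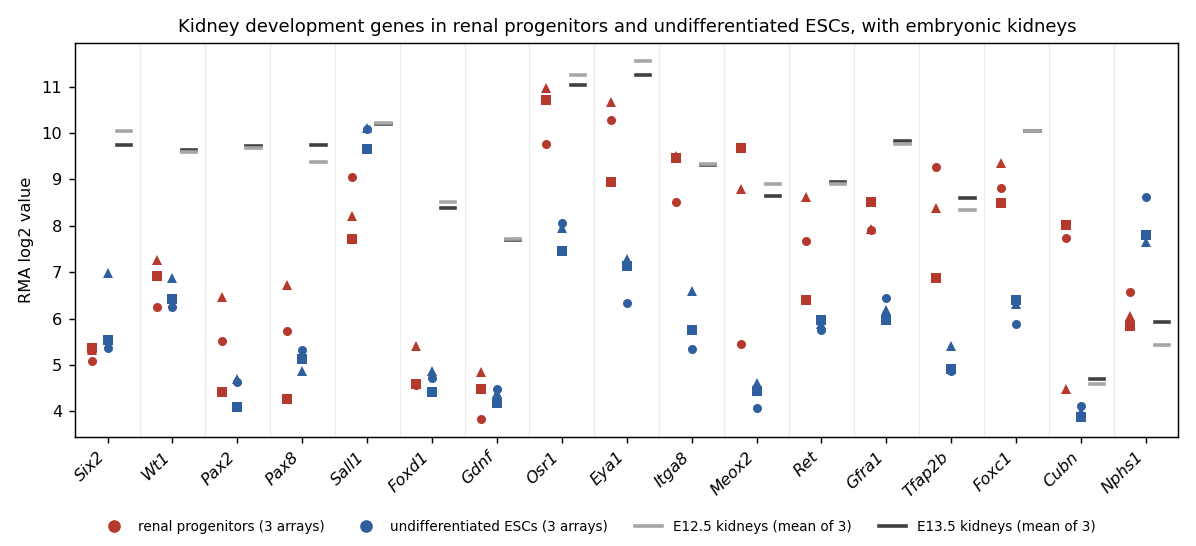
RMA log2 values of 17 kidney development genes on each array of renal progenitors (red) and ESCs (blue), with the means of E12.5 (light bars) and E13.5 (dark bars) kidneys. Itga8 stands near the kidney bars in progenitors, Osr1 and Eya1 stand above the ESC points and below the kidney bars, whereas Six2, Wt1, Gdnf and Foxd1 in progenitors stay near the ESC points.

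The duct lineage was mixed. Of 28 nephric duct and ureteric bud genes, 10 were called higher and 5 lower, and without progenitor replicate 3 6 were higher, as were 5 with the 6 arrays alone. Ret was measured at 7.68, 6.39 and 8.61 in progenitors against 5.75, 5.97 and 5.89 in ESCs (log2 fold change 1.69 ± 0.37), with replicate 2 closest to the ESCs and kidneys at 8.89 ± 0.23. Its co-receptor Gfra1 read 7.91, 8.52 and 7.93 in progenitors and 6.44, 5.97 and 6.18 in ESCs. The transcription factor Tfap2b, with 9.26, 6.87 and 8.39 in progenitors against 4.86, 4.92 and 5.41 in ESCs, showed the largest increase of the list, and Sox9, a factor of bud tips and of many other progenitors, rose by 2.86. Gata3, which directs duct growth, rose by 0.81, a call that was lost without progenitor replicate 3 (adjusted p = 0.118) or ESC replicate 1 (0.233). In the other direction, the organic anion transporter Slco4c1 fell by 3.95, Lhx1 fell by 2.90 and the epithelial cadherin Cdh1 fell by 2.52. Lhx1 read 4.14, 4.50 and 4.55 in progenitors against 4.94, 7.84 and 9.10 in ESCs, so the size of its change came from ESC replicates 2 and 3, and was -3.95 in batch 2 and -0.80 in batch 1. Hoxb7, expressed in the duct, rose by 1.27 and lost its call without progenitor replicate 3 (adjusted p = 0.131).

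Genes of the kidney stroma were mostly higher. Of 24, 16 were called higher and 1 lower, with a median log2 fold change of 1.63, and the counts were 16 and 1 with the 6 arrays alone and 0 lower without progenitor replicate 1 or ESC replicate 3. Meis1, a homeobox factor of stroma, was measured at 9.47, 9.63 and 10.03 in progenitors against 6.30, 6.17 and 6.81 in ESCs, the nuclear receptor Nr2f2 at 8.62, 8.82 and 8.45 in progenitors against 5.25, 5.42 and 5.92 in ESCs, and the receptor Pdgfra at 10.81, 11.29 and 11.01 in progenitors against 7.70, 7.61 and 9.22 in ESCs. The groups did not overlap for any of them. Dlk1, an imprinted Notch ligand relative, and the chemokine Cxcl12 rose by 3.34 and 2.66. Foxd1, which defines the stromal progenitors, was not among the genes that rose: it read 4.57, 4.59 and 5.41 in progenitors, 4.71, 4.42 and 4.88 in ESCs and 8.51 ± 0.48 in E12.5 kidneys (log2 fold change 0.19 ± 0.31, adjusted p = 0.689). Tcf21 and Tbx18, other stromal factors, were not called, and Tcf21 was at 4.86, 6.93 and 6.88 in progenitors and 4.85, 5.11 and 4.50 in ESCs with only replicates 2 and 3 clear of the ESCs. Without progenitor replicate 1 Tcf21 was called higher (log2 fold change 2.30, adjusted p = 0.00189). Many members of this list, among them Pdgfra, Prrx1, Snai2 and Fibin, also stand in lists of general mesenchyme or fibroblasts.

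Markers of nephron segments were scattered. Of 26 podocyte genes, 12 were called higher and 2 lower, 6 and 1 with the 6 arrays alone, and 1 lower without progenitor replicate 3 or ESC replicate 2 or 3. Foxc1, a transcription factor used by podocytes and other cells, rose by 2.68, whereas Nphs1, which encodes the slit diaphragm protein nephrin, fell by 1.88, with 6.57, 5.85 and 6.05 in progenitors against 8.63, 7.80 and 7.66 in ESCs. Of 28 proximal tubule genes, 5 were higher and 1 lower (2 lower without ESC replicate 2), a share of higher calls near that of all genes. Cubn, the endocytic receptor cubilin, was measured at 7.74, 8.01 and 4.49 in progenitors against 4.12, 3.88 and 3.99 in ESCs, with replicate 3 near the E12.5 kidney level of 4.60 ± 0.16 and just above the ESCs. Of 22 genes of the loop, distal tubule and collecting duct, 1 was higher and 2 lower, and leaving out any 1 array other than progenitor replicate 2 gave 0 or 1 higher and 0 to 2 lower. Of 22 renal vesicle genes, 6 were higher and 1 lower, and 4 were higher with the 6 arrays alone or without progenitor replicate 3. The median difference of this list was 1.16 in batch 1 and -0.01 in batch 2. Cdh6, the cadherin of the early proximal nephron, read 9.64, 7.20 and 9.18 in progenitors and 5.37, 6.08 and 7.40 in ESCs, with progenitor replicate 2 below ESC replicate 3, while the Notch ligand gene Jag1 was not called (adjusted p = 0.0633) except without progenitor replicate 2 (0.0104) or ESC replicate 3 (0.0106).

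Hox genes give position along the body axis, with paralogs numbered from head to tail. Of 39 measured, 19 were called higher and 2 lower (median 0.82). Hoxa2 was measured at 7.55, 6.96 and 8.74 in progenitors against 4.41, 4.57 and 4.68 in ESCs and Hoxa5 at 6.84, 6.69 and 9.39 in progenitors against 4.93, 4.14 and 4.41 in ESCs, the largest increases of the family, both highest in replicate 3. The 19 ran over paralogs 2 to 9, whereas the paralogs 10 and 11, which pattern the metanephric kidney, were not called in any cluster. Hoxd11 read 5.09, 7.02 and 5.48 in progenitors and 5.33, 5.51 and 5.95 in ESCs, against 10.30 ± 0.12 in E12.5 kidneys, and Hoxa11 read 4.78, 5.75 and 5.09 in progenitors and 5.19, 5.15 and 5.39 in ESCs, against 7.99 ± 0.09. Of the progenitor arrays, only replicate 2 stood above all ESC arrays for either gene. Hoxc12 and Hoxc13, the most posterior of their cluster, fell by 1.24 and 1.30. The list median was 0.58 in batch 1 and 1.00 in batch 2, and among the progenitor arrays 26 of the 39 genes were highest in replicate 3, as were 41.2% of all genes.

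Genes of the extracellular matrix were higher across several classes. Of 36 matrix glycoproteins and proteoglycans, 22 were called higher and 6 lower (median 1.59), of 34 collagens 15 and 2 (1 lower without progenitor replicate 1 or 2 or ESC replicate 1 or 2), and of 20 collagen-processing genes 15 and 1. Col14a1, a fibril-associated collagen, was measured at 8.30, 8.96 and 9.80 in progenitors against 4.39, 4.60 and 5.35 in ESCs. Col3a1, the fibrillar collagen of soft tissue, read 10.21, 10.82 and 10.57 in progenitors and 5.90, 6.78 and 6.71 in ESCs (4.07 ± 0.42), and Col6a1 10.10, 11.06 and 10.76 in progenitors and 7.41, 7.71 and 7.57 in ESCs (3.07 ± 0.28). These groups were all apart. Aspn, encoding the proteoglycan asporin, spread more, with 7.78, 10.35 and 10.72 in progenitors against 6.08, 6.73 and 6.17 in ESCs and replicate 1 the lowest progenitor. Among the enzymes, Adamts12 and Adamts1, secreted metalloproteases, rose by 4.33 and 3.74, and the collagen chaperone gene Serpinh1 by 1.74. The protease genes Mmp3 and Mmp13 fell by 3.20 and 3.07, and Mmp3 read 4.98, 5.87 and 4.83 in progenitors and 7.13, 8.55 and 9.59 in ESCs. In the basement membrane Lama4 and Col4a1 rose by 2.41 and 2.17 while Lama5, of the major epithelial laminin, fell by 1.76. Lama1 differed between progenitor arrays, with 10.42, 10.42 and 6.76 in progenitors against 7.15, 6.98 and 7.12 in ESCs. Replicate 3 lay below the ESCs, and the call was lost without progenitor replicate 1 (adjusted p = 0.085) or 2 (0.0813).

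Mesenchymal and epithelial genes moved apart. Of 17 genes of the mesenchymal transition, 12 were called higher and 2 lower (6 higher without ESC replicate 1, 0 lower without ESC replicate 2 or with the 6 arrays alone, and 1 lower without progenitor replicate 2 or 3 or ESC replicate 3), and of 28 epithelial adhesion genes 0 were higher and 19 lower (10 lower with the 6 arrays alone). The median difference of the epithelial list was -0.29 in batch 1 and -1.38 in batch 2, and that of the mesenchymal list 1.05 and 0.67. Among the ESC arrays, 18 of the 28 epithelial genes were lowest in replicate 1, as were 31.1% of all genes. Cdh11, the mesenchymal cadherin, rose by 2.90, and the repressor genes Snai2 and Twist1 by 2.32 and 1.50. Cdh1 was measured at 9.44, 9.08 and 6.66 in progenitors against 10.80, 11.00 and 10.94 in ESCs, with replicates 1 and 2 less than 2 log2 units under the ESCs and replicate 3 more than 4. Of the 28 epithelial genes, 23 were lowest among progenitors in replicate 3, as were 33.5% of all genes. Of 15 fibroblast and feeder markers, 11 were called higher and 3 lower (1 lower without progenitor replicate 3 or ESC replicate 2 or 3 or with the 6 arrays alone). Their mean level was 8.72, 9.40 and 9.56 in progenitors and 7.21, 7.72 and 7.99 in ESCs, and 6.21 in mesoderm cells. The ESC cultures held fibroblast feeders, and the part of feeder RNA in the ESC values was not tested.

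**Figure D4:**
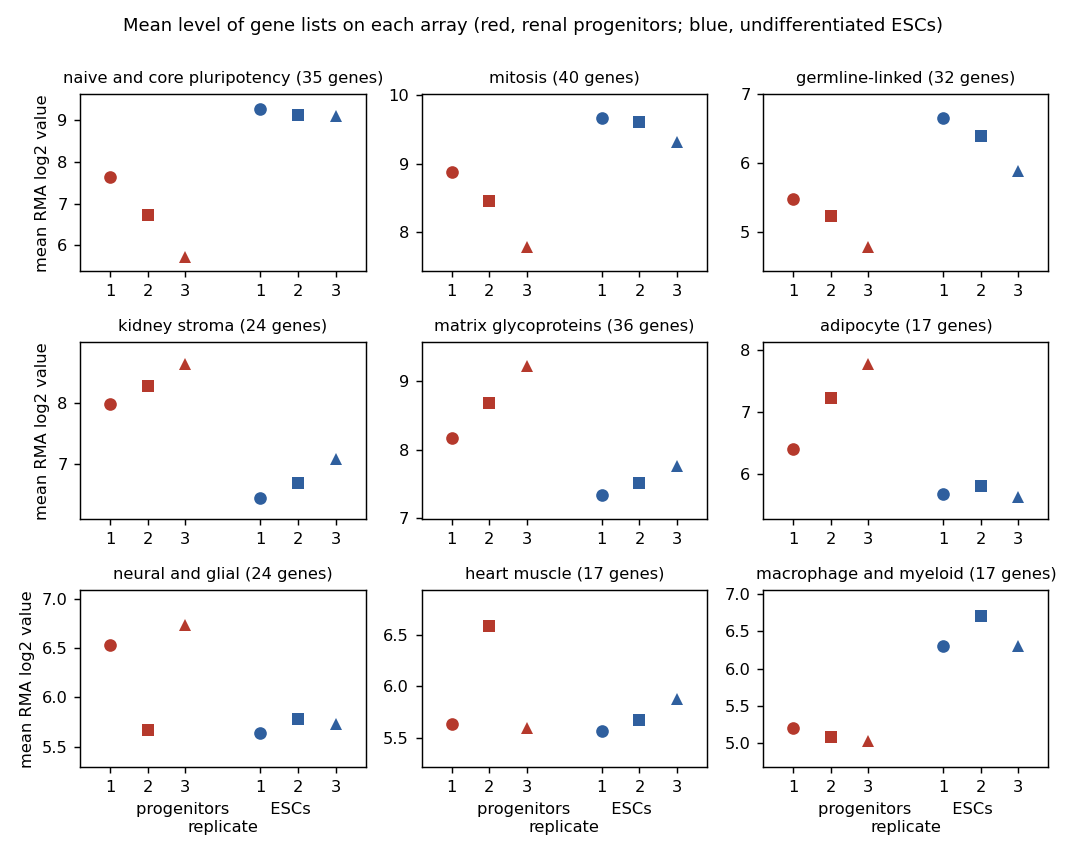
Mean RMA log2 level of 9 gene lists on each array, with renal progenitors (red) left of ESCs (blue) and replicates 1 to 3 as circle, square and triangle. The progenitor arrays spread widely in pluripotency, from 5.73 to 7.65, replicate 2 is low in neural genes and high in heart muscle genes, and the myeloid list is higher on all ESC arrays.

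Components of the pathways that the protocol addresses, and of Wnt, for which the protocol gave no factor, changed in both directions. BMP and TGF-beta signaling, the pathway of Bmp7, had 18 of 43 genes called higher and 6 lower. Id2, a direct BMP target, was measured at 10.16, 8.67 and 10.17 in progenitors against 6.20, 7.36 and 7.11 in ESCs, and the ligand gene Gdf10 at 7.91, 9.02 and 10.10 in progenitors against 5.21, 4.83 and 5.67 in ESCs. The inhibitory Smad7 fell by 1.44 and the ESC ligand gene Gdf3 by 2.50. Of 36 FGF and MAPK feedback genes, 13 were higher and 6 lower. Feedback inhibitor genes of the pathway were among those that rose: Spry2 by 1.39, Spry4 by 1.42 and Dusp6 by 1.22, with Spry2 at 9.51, 9.90 and 10.12 in progenitors against 8.16, 8.46 and 8.75 in ESCs and no overlap in any of them. The receptor gene Fgfr2 and the target gene Etv1 rose by 2.15 and 1.77. For Wnt, 12 of 49 were higher and 7 lower. The secreted antagonist gene Frzb and the receptor genes Fzd1 and Ror1 rose by 2.97, 2.60 and 2.62, whereas the effector gene Tcf7 and the receptor gene Fzd5 fell by 2.61 and 2.57.

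Retinoic acid genes had 8 of 19 called higher and 2 lower, 1 lower without progenitor replicate 2 or ESC replicate 2 or 3 or with the 6 arrays alone. Rarb, a receptor gene induced by its own ligand, was at 7.71, 7.78 and 7.88 in progenitors against 4.90, 5.76 and 5.67 in ESCs, although retinoic acid had been given only before the last step. Rarb ran 5.44 ± 0.47 in ESCs, 5.26 ± 0.24 in mesoderm, 7.68 ± 1.00 in intermediate mesoderm and 7.79 ± 0.09 in progenitors. Dhrs3, which reduces retinal, rose by 2.87, and Crabp1, a binding protein of retinoic acid, fell by 2.47. Insulin-like growth factors and imprinted genes had 17 of 31 called higher and 4 lower, 11 and 3 with the 6 arrays alone. Igf2 read 11.31, 11.81 and 11.70 in progenitors and 8.30, 9.66 and 9.99 in ESCs, Igf1 rose by 2.62, and the binding protein gene Igfbp5 read 11.40, 10.77 and 11.66 in progenitors and 5.46, 7.16 and 8.21 in ESCs with ESC replicate 1 the lowest. The placental growth restrictor gene Phlda2 fell by 3.27, and Grb10, an inhibitor of insulin signaling, by 1.93.

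Genes of the acute phase and of oncostatin and interleukin-6 signaling also changed in both directions. Of 31, 12 were called higher and 5 lower, 3 lower without ESC replicate 2. Steap4, a metalloreductase gene, was measured at 8.50, 10.27 and 9.81 in progenitors against 4.95, 5.44 and 5.63 in ESCs (log2 fold change 4.19 ± 0.40). The receptor gene Osmr read 9.39, 11.06 and 10.48 in progenitors and 7.56, 7.99 and 8.50 in ESCs, and the siderophore-binding protein gene Lcn2 8.31, 10.02 and 9.29 in progenitors and 5.41, 6.37 and 7.40 in ESCs. All 3 were apart, and all were highest in progenitor replicate 2. Saa3, a serum amyloid gene, rose by 2.86, with progenitor replicate 1, at 7.28, below ESC replicate 3, at 7.54. Il6 itself and the chemokine gene Ccl2 fell by 1.48 and 1.66, as did Socs3, the feedback inhibitor, by 0.83, which lost its call without ESC replicate 2 (adjusted p = 0.063). In E12.5 kidneys Steap4 was at 5.23 ± 0.11 and Osmr at 5.44 ± 0.03, below all progenitor arrays. In the promoters, TTNNGNAA, a C/EBP pattern, was found in 13 of 26 (50%), against 36.9% of all promoters, and the STAT pattern TTCNNNGAA in 3 (11.5%), against 7.18%. Complement had 6 of 25 higher and 8 lower, with 3 higher without progenitor replicate 2, and 4 or 5 lower without progenitor replicate 1 or 3 or ESC replicate 2 or 3. C3 was high in 2 progenitor arrays only, at 5.43, 9.54 and 8.70 in progenitors against 5.45, 5.80 and 6.05 in ESCs, and lost its call without replicate 2 (adjusted p = 0.105).

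Genes of other lineages differed among the progenitor arrays. Adipocyte genes had 11 of 17 called higher and 2 lower, with 0 lower without progenitor replicate 1 or ESC replicate 1 or with the 6 arrays alone. Pparg, the factor that directs fat cell formation, was at 5.83, 7.29 and 8.38 in progenitors against 4.09, 4.57 and 4.57 in ESCs, Lpl, lipoprotein lipase, at 7.60, 10.54 and 10.49 in progenitors against 6.35, 6.13 and 5.61 in ESCs, and Fabp4 rose by 3.79. The groups were apart, replicate 1 was the lowest progenitor for these 3 genes, and Adipoq, made by mature fat cells, was called only without progenitor replicate 1 (adjusted p = 0.0221). Neural and glial genes had 8 of 24 higher and 4 lower, 5 and 1 with the 6 arrays alone. The list mean was 6.53, 5.67 and 6.74 in progenitors and 5.64, 5.78 and 5.73 in ESCs. Replicate 2 thus lacked the increase, and without progenitor replicate 3 5 were called higher. Without progenitor replicate 2 or ESC replicate 2 or 3, 2 were lower. In heart muscle genes replicate 2 was the one that stood out: Pln, the calcium pump regulator, read 5.47, 8.27 and 5.07 in progenitors and 4.40, 4.35 and 4.68 in ESCs, 15 of 17 genes were highest there among progenitors, as were 24.1% of all genes, and the call of Pln was lost without it (adjusted p = 0.216) or without ESC replicate 2 (0.0614). Of 24 endothelial genes, 4 were higher and 6 lower (2 higher with the 6 arrays alone): Emcn rose by 5.47, but Pecam1, the junction protein that ESCs also express, fell by 2.79, and Kdr was not called, with 6.48, 5.47 and 6.55 in progenitors and 4.62, 5.94 and 7.83 in ESCs. Without progenitor replicate 3, 3 endothelial genes were lower.

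Myeloid genes were lower in progenitors, with 0 of 17 called higher and 8 lower (10 with the 6 arrays alone) and a mean level of 5.21, 5.08 and 5.03 in progenitors against 6.31, 6.70 and 6.30 in ESCs. Lyz2, lysozyme, was measured at 5.34, 4.94 and 5.18 in progenitors against 7.89, 8.98 and 7.92 in ESCs, and Laptm5, a lysosomal protein of blood cells, at 5.31, 4.62 and 4.57 in progenitors against 7.96, 7.75 and 6.95 in ESCs, both without overlap. The defining genes Adgre1, Csf1r and Ptprc were not called with all 30 arrays. Adgre1 was called lower without ESC replicate 1 (adjusted p = 0.0208), in batch 2 alone, with quantile normalization and with array weights, and Ptprc with the 6 arrays alone (adjusted p = 0.0497). Ptprc read 3.23, 3.82 and 3.71 in progenitors and 4.27, 4.12 and 4.38 in ESCs, low on all 6 arrays. The part of myeloid RNA in the other differences was not tested. For Lyz2 the level was already low in mesoderm cells, at 4.89 ± 0.37. Red cell genes had 0 of 12 called in either direction (1 higher with the 6 arrays alone), while kidneys exceeded ESCs by a median of 2.27 in that list.

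The arrays of the stages in between split the difference into steps along the protocol. Of the genes at least 2-fold higher in progenitors, 71.7% had their largest step between intermediate mesoderm and progenitors, 16.2% between mesoderm and intermediate mesoderm and 12.1% between ESCs and mesoderm. Of those at least 2-fold lower, 67.5%, 8% and 24.5% had their largest step in these intervals, in the same order. The last step was also by far the longest in days. The genes were selected with the same progenitor and ESC arrays, so the spread of the progenitors, the most variable group, enters the last step. These shares are a description with no test. Mean levels of the matrix glycoprotein list ran 7.53 in ESCs, 6.74 in mesoderm, 7.40 in intermediate mesoderm and 8.69 in progenitors, and those of the mitosis list 9.52, 9.47, 9.28 and 8.37. Cubn, by contrast, was highest before the progenitor stage, with 4.0 ± 0.12 in ESCs, 8.10 ± 0.81 in mesoderm, 9.14 ± 0.44 in intermediate mesoderm and 6.75 ± 1.96 in progenitors. Cp ran 5.36 ± 0.72, 5.12 ± 0.34, 5.68 ± 0.38 and 10.12 ± 0.77 over the same stages and Emcn 3.90 ± 0.27, 5.10 ± 0.53, 4.99 ± 0.29 and 9.37 ± 0.11, with the increase of both in the last step.

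**Figure D5:**
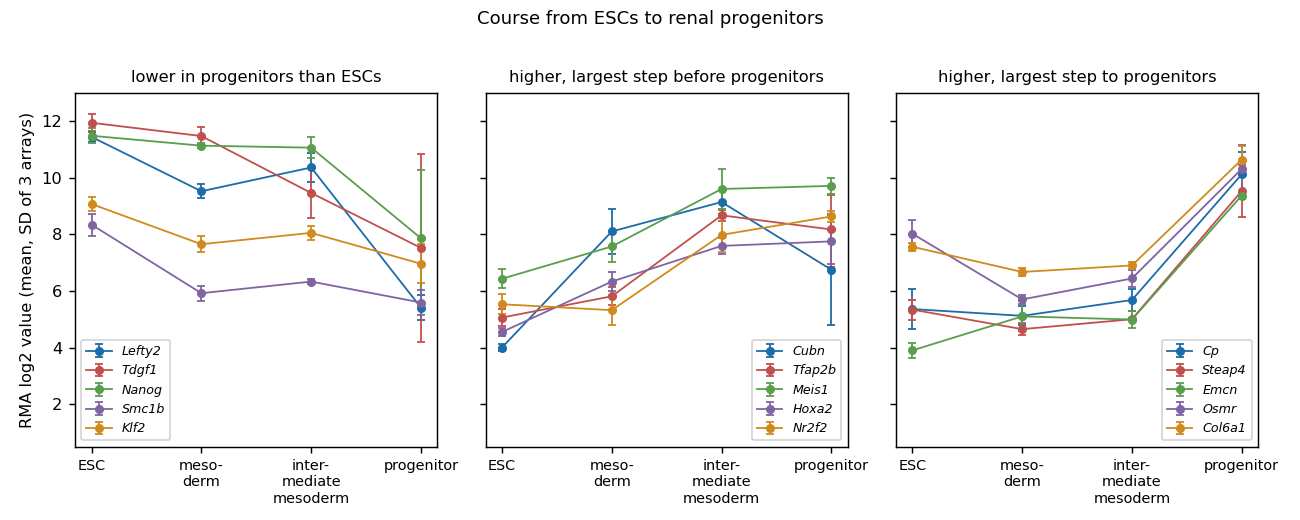
Mean RMA log2 values (error bars, SD of 3 arrays) at the 4 stages ESC, mesoderm, intermediate mesoderm and progenitor for 5 genes lower in progenitors, 5 higher with the largest step before the progenitor stage, and 5 higher with the largest step into it. Cubn peaks at intermediate mesoderm, and Cp, Steap4, Emcn, Osmr and Col6a1 climb in the last step.

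Against the embryonic kidneys, 665 of the 1410 genes at least 2-fold higher in progenitors (47.2%) were also at least 2-fold higher in kidneys than in ESCs, and 482 (34.2%) stood at least 2-fold above the kidneys. Of the 1550 genes at least 2-fold lower, 763 (49.2%) were also lower in kidneys and 325 (21%) stood at least 2-fold below the kidneys. Replication genes were lower in progenitors than in kidneys by a median of 1.08, and metanephric mesenchyme genes by a median of 1.39. Acute phase genes stood above the kidneys by a median of 1.12 and adipocyte genes by 1.10. Both comparisons share the ESC arrays, which can by itself raise the overlap, and the same shares over all genes were not counted. These counts are therefore given as a description of the progenitor values with no test, and not as an excess of overlap.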

How the data were processed

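Total RNA of 30 samples was hybridised to Affymetrix Mouse Gene 2.0 ST arrays. RNA was extracted with an RNeasy kit, named RNeasy Plus in the labels and RNeasy Mini in the study's methods. The authors deposited a table of log2 intensities, normalised with RMA, with 1 value per gene symbol for 23986 symbols, and how probes were assigned to symbols is not given in the sources used here. The number of arrays, not a read depth, limits the precision. No value was renormalised. Of the symbols, 23143 matched a current RefSeq symbol and 518 a synonym.

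All 30 arrays entered 1 linear model in limma (version 3.58.1, R 4.3.3) with 10 group coefficients and a batch term, giving 19 residual degrees of freedom, and the contrast of renal progenitors minus ESCs was tested with empirical Bayes moderation and Benjamini-Hochberg adjustment over all genes, with a threshold of 0.05. The difference of the contrast between batches was tested as an interaction. The procedure was run on simulated data with a spread equal in all groups and with the spread measured in each group. Sign and bias of large changes were checked in both. The number of false calls was limited only under equal spread. The simulation therefore does not bound false calls under the larger spread of the progenitors. Other steps used Python 3.11.15 with numpy 2.4.6, pandas 2.3.3 and matplotlib 3.10.9.

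Genes were named by a rule: 18 marker genes of the study, the 15 genes that rose most and the 15 that fell most of those called with no overlap between groups (leaving out predicted, microRNA, small nucleolar and receptor family genes), up to 5 called members in each direction of each of 57 gene lists, and all called microRNA genes. The lists held 1506 entries, of which 1447 were measured, and some genes stand in several. A further 25 genes, among them Mki67, Sox2, Cdc20, Kif11, Cdk1, Cenpe, Sycp3, Hormad1, Ddx4, Igf2, Osmr, Tcf21, Gdnf, Kdr, Hoxa11 and Hoxd11, were named after their values were seen. A few genes named by the rule are not reported here. The members and lists were chosen with earlier results of these data known. Promoters and microRNAs came from RefSeq (GRCm38.p6), and motifs were searched on both strands of the 250 bases before each start. The alternatives were the 6 arrays alone, no batch term, batch 2 alone, replicate blocks, a filter on dim genes, quantile normalization, median centring, another prior, array weights, a minimum log2 fold change of 1, and fits without each of the 6 arrays in turn.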

Additional observations from a re-analysis of the deposited data

Results flagged for a closer look

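For 9 of the genes with values, the difference between progenitors and ESCs was not the same in the 2 batches, by a test of the interaction in limma with adjustment over all genes. Batch 1 holds replicate 1 of each group only, so its difference rests on 1 array a group, and batch and array cannot be told apart. With the 6 arrays alone the interaction was called in limma for 0 genes (1102 at an unadjusted p under 0.05), against 72 with all arrays (2365).

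The genes lower in progenitors were lower mostly in batch 2. For Cer1, a Nodal and BMP antagonist of the early embryo, the log2 difference was -5.40 in batch 2 and -0.59 in batch 1, a gap of -4.80 (adjusted p = 0.000254), as ESC replicate 1 was at 5.33 and the other ESC arrays at 9.85 and 10.47. The gaps were -4.40 for Fgf5 (adjusted p = 0.0298), -4.91 for Trh (0.0407), -3.34 for the Wnt antagonist gene Sfrp5 (0.0373), -3.91 for Dnmt3b (0.0373) and -4.58 for Cyp26a1 (0.0298), which breaks down retinoic acid. Dnmt3b and Cyp26a1 had opposite signs, with -3.32 in batch 2 and 1.26 in batch 1 for Cyp26a1. The interferon-induced gene Gbp2 also had opposite signs, with -1.89 in batch 2, 0.60 in batch 1 and a gap of -2.48 (0.0373). The chemokine gene Cxcl13 was higher by 4.09 in batch 2 and 0.90 in batch 1, a gap of 3.19 (0.0346), and Cxcl15 by 0.98 in batch 2 and 2.89 in batch 1, a gap of -1.91 (0.0333).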

How the results depend on the processing

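The 8256 calls, 3556 higher and 4700 lower, moved with the threshold and with the arrays that estimated the spread. Against a log2 fold change of 1, 603 were called (309 and 294). With the 6 arrays alone, 4541 genes were called with the batch term (1725 higher, 2816 lower) and 4281 without it (1537 and 2744). Leaving out 1 array gave 6846 to 8061 calls, 2824 to 3345 higher and 4014 to 4716 lower. The interaction with batch was called for 72 genes with all arrays and for 0 with the 6 arrays alone. Median centring moved the split to 3333 higher and 4870 lower, and quantile normalization to 3739 and 4519.

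The replicate numbers were checked for pairing: the deviations of same-numbered samples correlated at 0.164, 0.0468 and 0.207 and those of other pairs at -0.212 to 0.0529. Pair 2 was not over 0.1, so the numbers were not taken to pair the samples, and replicate 1 of both groups also shares the batch 1 label. A replicate block on the 6 arrays gave 4630 calls (1929 higher, 2701 lower), and a block beside the batch term 8241.

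Of 392 called genes named by rule, 273 kept their call under every alternative except the threshold of 1, and 119 lost it under at least 1. The signs that turned were all of genes without a call, and the cause was not tested. Foxd1 turned to -0.17 without progenitor replicate 3 (highest 0.52 over the fits without 1 array). Gdnf turned to -0.10 with quantile normalization and to -0.02, -0.21 and -0.05 without progenitor replicates 2 and 3 and ESC replicate 2 (highest 0.39). Hoxa11 turned to 0.15 in batch 2, 0.33 with array weights, and 0.47, 0.01 and 0.14 without progenitor replicate 1 and ESC replicates 2 and 3, and Hoxd11 to -0.43 without progenitor replicate 2 and -0.13 without ESC replicate 1 (highest 0.98). Kdr turned to -0.87 in batch 2, -0.30 with array weights, and -0.31, -0.10, -0.75 and -0.13 without progenitor replicates 1 and 3 and ESC replicates 1 and 2 (highest 0.87). Mki67 turned to -0.03 in batch 2 and to -0.07 and -0.02 without progenitor replicate 1 and ESC replicate 2 (highest 0.36). Pax8 turned to -0.21 with array weights and -0.16 without progenitor replicate 3 (highest 1.13), and Tbx18 to 0.15 in batch 2 and 0.16 without progenitor replicate 1 (lowest -0.33). With 3 arrays a group, small differences and genes near background could not be resolved.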

Other observations

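Cholesterol synthesis genes had 7 of 21 called higher and 0 lower (4 higher with the 6 arrays alone, and 1 lower without progenitor replicate 1 or 3 or ESC replicate 1), with a median log2 fold change of 0.30, and their mean level was highest in mesoderm cells, at 9.53, against 8.60 in ESCs. Replication-dependent histone genes had 0 of 36 called higher and 18 lower. Of 22 genes of oxidative stress and detoxification, 5 were called higher (3 with the 6 arrays alone) and 7 lower.

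Interferon and antigen presentation genes had 9 of 30 called higher and 3 lower, 4 higher with the 6 arrays alone, 5 higher without ESC replicate 1 and 5 lower without ESC replicate 3. Endoderm, liver and yolk sac genes had 2 of 21 called higher and 0 lower, with 1 higher without progenitor replicate 2 or 3 or ESC replicate 1 or 2, 1 lower without ESC replicate 1, 3 higher without progenitor replicate 1 and 4 with the 6 arrays alone. Skeletal muscle genes had 1 of 16 called in each direction, with 0 higher without progenitor replicate 1 or ESC replicate 1 or with the 6 arrays alone. Trophoblast genes had 0 of 12 called higher and 1 lower, with 2 higher without progenitor replicate 3.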
